A study of Mus musculus with 8 samples.

Results

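The transcripts of 10 genes that the fetal hepatocyte expresses, *Alb*, *Afp*, *Apoa1*, *Apoa2*, *Apob*, *Ttr*, *Trf*, *Ahsg*, *Fgb* and *Serpina1a*, were measured in bulk RNA-seq of long-term hematopoietic stem cells (LT-HSCs) from mouse fetal liver (FL). They were chosen by name as products of the fetal hepatocyte, were found by the Ensembl identifiers of the count table, and are 10 of its 55487 genes. All 10 had at least 10 reads summed over the 8 libraries. The libraries came from *IκBα* (*Nfkbia*) WT (n = 3), HET (n = 3) and KO (n = 2) embryos at E14.5, each from 500 cells sorted as LSK CD48- CD150+. LSK cells lack lineage antigens and carry SCA1 and cKIT. The embryos came from heterozygous matings of a line with a targeted, germline *Nfkbia* deletion, so that every cell of a KO embryo lacks the gene, and the methods state that a further KO sample was discarded. The methods do not state for each library whether the embryos also carried the *Gfi1:tomato* reporter. WT1, WT2 and HET1 were male and carry the molecule label total RNA, whereas WT3, HET2, HET3, KO1 and KO2 were female and carry the label polyA RNA, so that sex and molecule label cannot be told apart and both KO libraries are female.

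The FL at mid-gestation is the main site of blood formation, and its hematopoietic cells expand among hepatoblasts, the bipotent precursors of hepatocytes. Hepatoblasts and fetal hepatocytes make most plasma proteins, among them albumin, alpha-fetoprotein, apolipoproteins and clotting factors, and their mRNAs are among the most abundant of the tissue. HSCs are sorted from this tissue, so the level of such mRNAs in a sorted sample can be read as a measure of the liver RNA it holds.

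These genes share regulators of the liver program such as HNF1 and FOXA factors. The 250 bases before the RefSeq start are shown for the 4 genes with the HNF1 half-site GTTAAT (sequences and starts from RefSeq, GRCm38.p6, each written along the gene's own strand). Whether these sites bear on the levels below was not tested. The capitals mark GTTAAT and the FOXA core TGTTTGC or their reverse complements.
Alb (chr5:90460620-90460869, plus strand): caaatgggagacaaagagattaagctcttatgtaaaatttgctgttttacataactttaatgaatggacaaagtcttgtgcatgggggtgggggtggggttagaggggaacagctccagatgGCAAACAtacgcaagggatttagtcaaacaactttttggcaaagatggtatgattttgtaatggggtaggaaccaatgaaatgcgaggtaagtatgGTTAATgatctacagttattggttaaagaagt
Afp (chr5:90490464-90490713, plus strand): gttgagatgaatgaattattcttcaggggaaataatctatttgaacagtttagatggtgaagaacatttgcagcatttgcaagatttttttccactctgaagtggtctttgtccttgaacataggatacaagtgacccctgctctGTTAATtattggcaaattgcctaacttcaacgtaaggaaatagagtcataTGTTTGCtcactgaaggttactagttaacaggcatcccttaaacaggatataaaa
Fgb (chr3:83049864-83050113, minus strand): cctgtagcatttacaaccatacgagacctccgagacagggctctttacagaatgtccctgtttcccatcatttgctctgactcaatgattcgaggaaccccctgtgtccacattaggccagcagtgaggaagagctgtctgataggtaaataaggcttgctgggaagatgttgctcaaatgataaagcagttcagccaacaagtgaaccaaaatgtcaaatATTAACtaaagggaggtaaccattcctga
Serpina1a (chr12:103863620-103863869, minus strand): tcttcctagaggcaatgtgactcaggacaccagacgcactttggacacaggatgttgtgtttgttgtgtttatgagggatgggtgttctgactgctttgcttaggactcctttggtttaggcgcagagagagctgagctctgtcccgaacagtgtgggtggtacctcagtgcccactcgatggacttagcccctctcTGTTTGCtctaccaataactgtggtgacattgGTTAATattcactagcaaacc

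RefSeq promoters were at hand for 8 of the 10 genes, all but *Ttr* and *Trf*. On either strand, GTTAAT was present in 4 of the 8, in *Alb* 32 bases before the start, in *Afp* 105 bases, in *Fgb* 29 bases and in *Serpina1a* 21 bases, and in 7.49% of the windows of 27025 genes. The FOXA core was present in 6 of the 8 (*Alb*, *Afp*, *Apoa1*, *Apob*, *Ahsg* and *Serpina1a*) and in 4.93% of all genes. These motifs do not overlap in the windows shown. *Alb* (chr5:90460897-90476602) and *Afp* (chr5:90490737-90508907) lie in tandem on the plus strand of GRCm38 with 14134 bases between them.

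Between 17895973 and 21720972 reads per library were counted on genes, so that 3 reads, the smallest level taken as detected, corresponded to 0.138 to 0.168 CPM (the reads of a gene scaled to the library's total of counted reads). *Nfkbia* was near absent from the KO libraries, with 0.0559 CPM (1 read) in KO1 and no read in KO2, beside 49.4, 78.5 and 20.7 CPM in WT1 to WT3 and 22.6, 26.8 and 12.3 CPM in HET1 to HET3. The libraries differed in a second respect that the labels do not give. The summed level of 16 HSC genes ran from 3355.2 to 3783.1 CPM in WT1, WT2 and KO1, was 1991.0 CPM in KO2, 1255.5 CPM in HET1 and 939 CPM in HET2, and was 447 CPM in WT3 and 324 CPM in HET3. In 15 of the 16 genes WT3 and HET3 were below the other 6 libraries, beside 23.9% of the 20610 genes tested, so WT3 and HET3 went against their label of LT-HSCs. *Cd34* was at 41.7 CPM in WT3 and 6.44 CPM in HET3 against 119 to 532 CPM elsewhere, and *Ly6a*, which encodes the SCA1 of the sort gate, was at 4.42 CPM in WT3 and had no read in HET3 against 13 to 89.5 CPM elsewhere. *Kit* was the exception to the 15, with 131 CPM in WT3 and 145 CPM in HET3 against 131 to 264 CPM elsewhere. Results below are therefore given with and without WT3 and HET3, a pair singled out after its values were seen.

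The summed reads of the 10 hepatocyte transcripts took between 0.00571% and 0.135% of a library, a range that crossed the genotypes. WT3 had 29222 such reads, 0.135% of all counted reads (95% Wilson interval 0.133 to 0.136%), or 1 read in 743. HET3 had 12995 reads (0.0659%, 0.0648 to 0.0671%) and KO2 had 6205 (0.0311%, 0.0303 to 0.0319%). HET2 and HET1 followed with 0.0194% (0.0188 to 0.02%) and 0.0143% (0.0138 to 0.0148%). WT2, WT1 and KO1 were lowest, with 0.00978% (0.00936 to 0.0102%), 0.00577% (0.00544 to 0.00611%) and 0.00571% (0.00537 to 0.00607%), and only WT1 and KO1 were neighbours whose intervals overlapped. These intervals cover counting error only, since the reads carry no molecular identifiers.

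By genotype, the share was 0.05% ± 0.0732 in WT (SD, n = 3), 0.0332% ± 0.0285 in HET (n = 3) and 0.0184% ± 0.018 in KO (n = 2), so in each group the SD was near or above the mean. WT libraries were both the highest and among the 3 lowest, and HET1 and HET2 stood between the KO libraries. Without WT3 and HET3 the 4 remaining WT and HET libraries had 0.0123% ± 0.00586, below the KO mean. In bulk samples, fewer hepatocytes and less RNA per hepatocyte cannot be told apart.

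**Figure D1:**
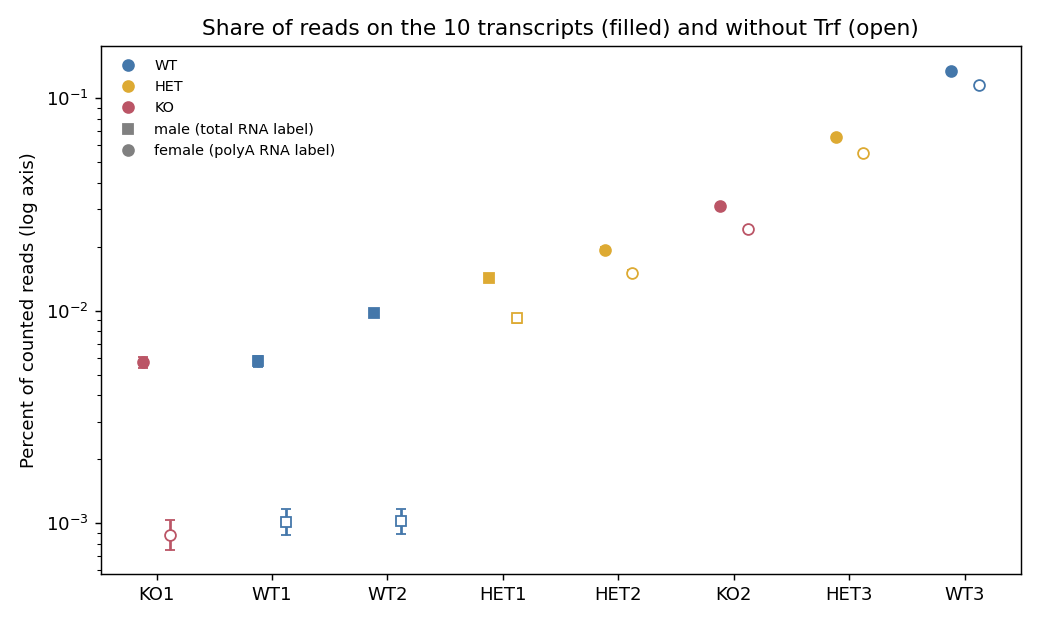
Percent of counted reads on the 10 transcripts (filled) and on the 9 without *Trf* (open) in each library, ordered by the filled value, on a log axis with 95% Wilson intervals. WT3 is highest at 0.135% and WT1, WT2 and KO1 lie at or below 0.00978%, with HET1, HET2, KO2 and HET3 between.

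Much of the sum in the low libraries was *Trf*, which encodes transferrin, the iron carrier of plasma. *Trf* was at 47.5, 87.6 and 182 CPM in WT1 to WT3, at 50.6, 42.6 and 107 CPM in HET1 to HET3, and at 48.3 and 68.6 CPM in KO1 and KO2. All libraries thus held it within 4.27-fold of each other, and it made up 82.4%, 89.6% and 84.6% of the summed reads in WT1, WT2 and KO1 but 13.5% in WT3. Without *Trf*, the other 9 transcripts had 10.1, 10.2 and 8.77 CPM in WT1, WT2 and KO1, 92.2 CPM in HET1, 151 CPM in HET2, 242 CPM in KO2, 552 CPM in HET3 and 1163.2 CPM in WT3. As an estimate of liver RNA relative to the library with the most, the 9 transcripts were in HET3 at 47.5% of their level in WT3, in KO2 at 20.8%, in HET2 at 13%, in HET1 at 7.93%, and in WT2, WT1 and KO1 at 0.875%, 0.872% and 0.754%. In the low libraries the estimate depends on the gene used. *Afp* made up 71.9%, 65.2% and 58% of the reads of the 9 transcripts in WT1, WT2 and KO1, beside 42% in WT3. *Alb* alone stood at 0.182%, 0.0722% and 0.117% of its WT3 level in WT1, WT2 and KO1, and the median of the 10 members at 0.203%, 0.404% and 0.436%. The estimate is relative only, because no hepatocyte profile was at hand to turn it into a number of cells, and the source of the reads was not tested.

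Other plasma carriers varied far more than *Trf*. *Alb*, albumin, was at 0.612, 0.242 and 336 CPM in WT1 to WT3, at 15.3, 32.4 and 117 CPM in HET1 to HET3, and at 0.391 and 45 CPM in KO1 and KO2. This is a 1385.6-fold range between libraries of the same genotype, from 5 reads in WT2 to 7291 in WT3. *Afp*, the albumin of the embryo, was at 7.29, 6.64 and 489 CPM in WT, at 47.8, 79.4 and 278 CPM in HET, and at 5.08 and 138 CPM in KO. Its range was 96.2-fold, with the same 3 libraries lowest as for *Alb*. *Ttr*, the carrier of thyroxine and retinol-binding protein, had no read in WT1 and WT2 and was at 55.8 CPM in WT3, at 4.33, 5.23 and 16.4 CPM in HET and at 0.168 and 5.72 CPM in KO. KO2 lay within the range of the WT libraries for each of these genes, and KO1 did so for *Alb* and *Ttr* and was below it for *Afp*.

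*Apoa1* and *Apoa2*, the main proteins of high-density lipoprotein, were likewise lowest in WT1, WT2 and KO1. *Apoa1* was at 1.78, 2.28 and 117 CPM in WT1 to WT3, at 7.73, 17.7 and 56.6 CPM in HET1 to HET3 and at 1.51 and 25.3 CPM in KO1 and KO2. *Apoa2* was at 0.408, 0.775 and 105 CPM in WT, at 14.1, 10.4 and 49.3 CPM in HET and at 1.45 and 18.1 CPM in KO. WT3 and HET3 were the highest for both, followed by KO2. *Apob*, the structural protein of very low and low density lipoprotein, had no read in WT1, WT2, HET1 and KO1, and was at 5.06 CPM in WT3, 0.234 CPM in HET2, 0.71 CPM in HET3 and 0.953 CPM in KO2. It was the only member for which HET3 was not the runner-up to WT3.

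*Ahsg* (fetuin A, a binder of calcium phosphate) had no read in WT1 and was at 0.242 CPM in WT2, 29.4 CPM in WT3, 1.91, 1.54 and 14.4 CPM in HET1 to HET3, and 0.168 and 5.41 CPM in KO1 and KO2. *Fgb*, the beta chain of fibrinogen, was at 0.051, 0 and 22.9 CPM in WT, at 0.877, 4.11 and 19 CPM in HET and at 0 and 3.36 CPM in KO. *Serpina1a*, an alpha-1-antitrypsin, was at 3.31 CPM in WT3, 0.103, 0.14 and 1.47 CPM in HET1 to HET3 and 0.652 CPM in KO2, with no read in WT1, WT2 and KO1. For all 3 genes KO1 was below HET1 and KO2 was above it. *Serpina1a* counts are uncertain because 67.4% of its 50-base windows also occur in copies of the gene that uniquely mapped reads cannot resolve. Of these copies *Serpina1b* had 277 reads in WT3, *Serpina1d* 96, *Serpina1e* 75 and *Serpina1c* 29, beside 72 of *Serpina1a*, and in WT1, WT2 and KO1 the 5 genes together had 1 read, of *Serpina1b*. An antisense gene overlaps *Afp* and another overlaps *Ahsg*. Neither had a read, but the strand setting of the counts is not known.

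Counted per gene, 5 members were under 3 reads in WT1, 4 in WT2, 3 in KO1, 2 in HET1 and none in HET2, HET3, KO2 and WT3. Each floor of 3 reads allows up to 0.153 CPM in WT1, 0.145 CPM in WT2 and 0.168 CPM in KO1. Per kilobase of exon, which allows genes to be compared, the levels in WT3 were 196 CPM per kb for *Apoa2*, 145 for *Afp*, 143 for *Alb*, 94.5 for *Apoa1*, 54.9 for *Trf*, 47 for *Ttr*, 13.4 for *Ahsg*, 6.01 for *Fgb*, 1.81 for *Serpina1a* and 0.363 for *Apob*. Over the length of the longest coding transcript in place of all exons, *Afp* came first with 237 CPM per kb, before *Apoa2* with 203, *Alb* with 165 and *Apoa1* with 113, so the order of the top genes depends on the length used. A single library gives these levels, with no spread.

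**Figure D2:**
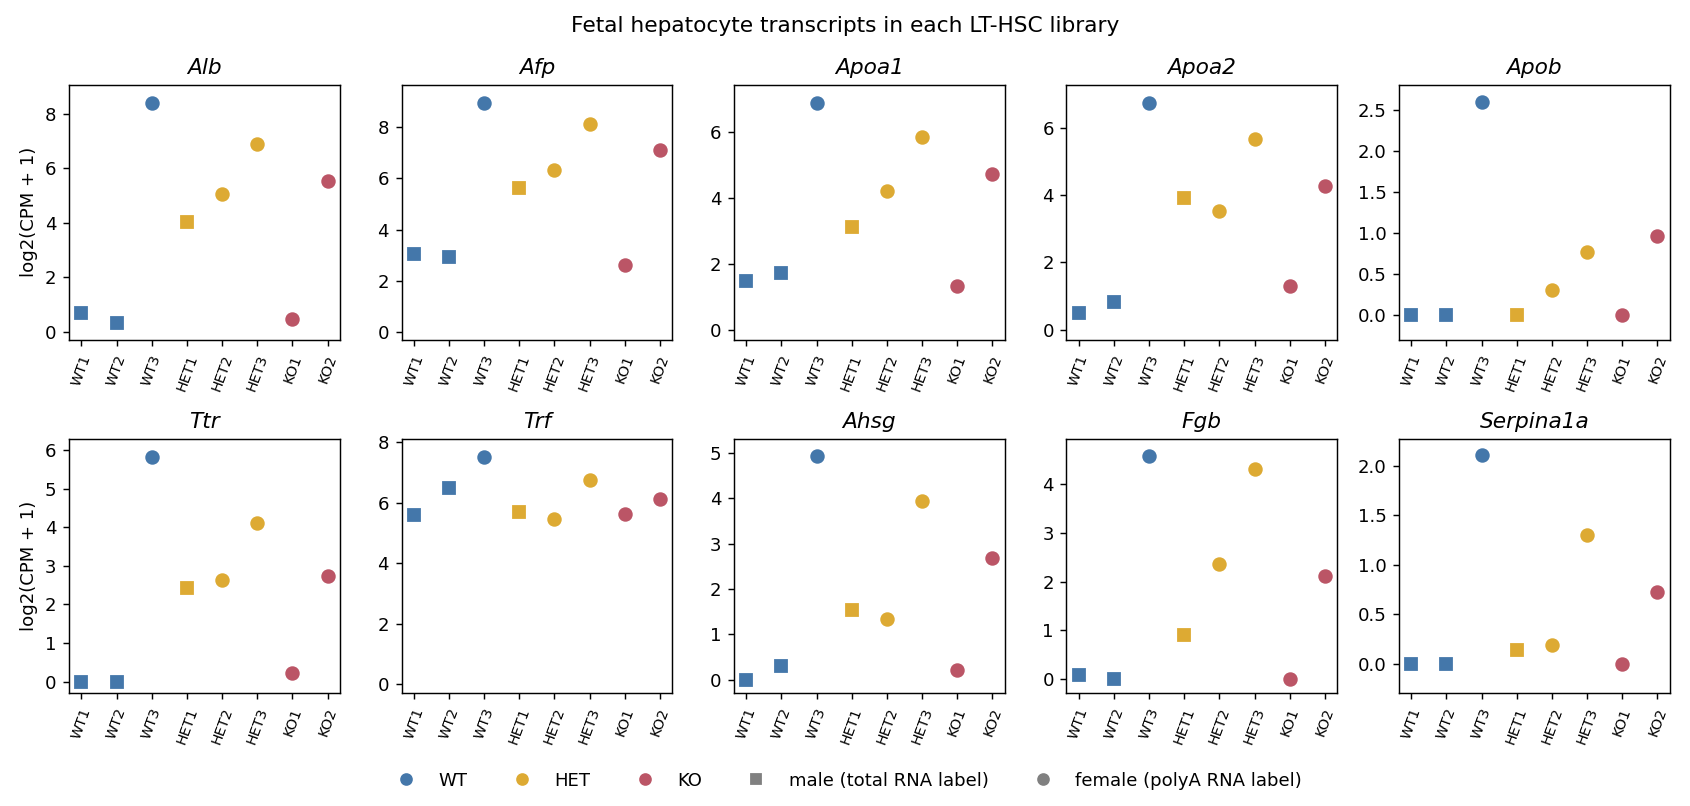
Level of each transcript in each library as log2(CPM + 1), with each panel on its own scale from 0, coloured by genotype and with squares for male and circles for female libraries. WT3 is highest in all 10 panels, and WT1, WT2 and KO1 are low in all but *Trf*, which lies between 42.6 and 182 CPM.

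WT3 was the highest library for all 10 members, beside 10.3% of the genes tested, and WT3 and HET3 were above the other 6 libraries for 9 of the 10, beside 8.84% of the genes tested. Over the 8 libraries, the Pearson correlation of log2(CPM + 1) between a member and each of the others had a median of 0.955 to 0.972 for *Alb*, *Afp*, *Apoa1*, *Apoa2*, *Ttr*, *Ahsg* and *Fgb*, and of 0.912 for *Serpina1a*, 0.831 for *Apob* and 0.695 for *Trf*. These correlations describe points that share their libraries, and have no test. Divided by its own mean over the 8 libraries, the median member stood at 4.32 in WT3, at 1.97 in HET3, at 0.841 in KO2, at 0.476 in HET2 and at 0.279 in HET1, and at 0.0203 in KO1, 0.0173 in WT2 and 0.00854 in WT1. In WT3 the members ranged from 2.3 (*Trf*) to 5.82 (*Apob*) and in KO2 from 0.522 (*Ttr*) to 1.09 (*Apob*).

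The members did not scale by a single factor between libraries. In HET3 they ranged from 14% (*Apob*) to 82.9% (*Fgb*) of their level in WT3. The ratio of *Afp* to *Alb* reads was lowest in WT3, at 1.46, and 2.38 to 3.12 in HET3, HET2, KO2 and HET1. It was 11.9, 27.4 and 13 in WT1, WT2 and KO1, which had 12, 5 and 7 *Alb* reads. At the ratio of WT3, the *Alb* reads of WT1 would go with 17.5 *Afp* reads (9.03 to 30.5 from the 95% Poisson interval of *Alb*), whereas 143 were counted (Poisson interval 121 to 168). Like the intervals of the shares, these cover counting error only, and amplified reads from 500 cells are not independent molecules, so the true uncertainty of 5 to 12 *Alb* reads is wider. For WT2 the values were 7.28 (2.37 to 17) against 137 (115 to 162), and for KO1 10.2 (4.1 to 21) against 91 (73.3 to 112). The share of *Alb* in the reads of the pair was 40.7% in WT3 (95% Wilson interval 40 to 41.4%), 24.3 to 29.5% in HET1, HET2, HET3 and KO2, and 3.52 to 7.74% in the other libraries, where the highest interval bound was 14%. *Apoa1* showed the same order, with 0.348 reads per *Alb* read in WT3, 0.486 to 0.563 in HET1, HET2, HET3 and KO2, and 2.92, 9.4 and 3.86 in WT1, WT2 and KO1. *Apoa2* had 0.667, 3.2 and 3.71 reads per *Alb* read in WT1, WT2 and KO1, against 0.314 in WT3. In these counts *Afp*, *Apoa1* and *Apoa2*, like *Trf*, thus had more reads per *Alb* read in the 3 low libraries than in WT3. All these ratios share the same 5 to 12 *Alb* reads, so they do not set these genes apart from a low *Alb* count.

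**Figure D3:**
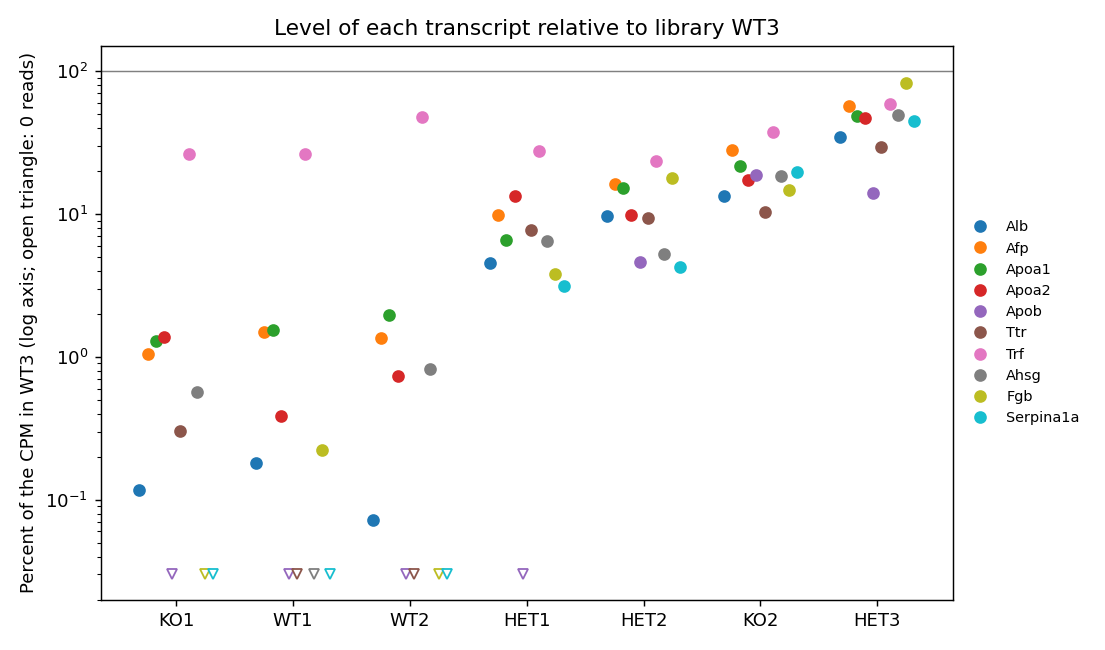
Level of each transcript in 7 libraries as a percent of its CPM in WT3 (grey line at 100%), on a log axis, with open triangles at the base for genes with 0 reads. The members lie within 14 to 82.9% in HET3 and 10.3 to 37.7% in KO2, while in WT1, WT2 and KO1 *Trf* lies at 26.1 to 48.1% and every other member at or below 1.95%.

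To ask whether loss of *IκBα* changed these transcripts, KO was compared with pooled WT and HET libraries with sex in the model. The edgeR quasi-likelihood test called none of the 10 members at an adjusted p under 0.05 and a log2 fold change over 1, beside 0% of the 20610 genes tested, and none had an unadjusted p under 0.05 in the lower direction, beside 9.48% of all genes. DESeq2 called none either, beside 1.64% of genes called lower. All 10 fitted values were below 0, with a median log2 fold change of -2.59 beside 0.13 over all genes, and each had a large error. The value was -3.05 ± 2.03 (SE) for *Alb* (edgeR adjusted p = 0.361), -2.20 ± 1.46 for *Afp* (edgeR adjusted p = 0.357) and -1.20 ± 0.556 for *Trf* (edgeR adjusted p = 0.215). The other 7 lay between -3.40 (*Fgb*) and -2.27 (*Apob*) with edgeR adjusted p of 0.250 to 0.471.

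No member had both KO libraries below all WT and HET libraries, beside 1.19% of the genes tested. Because both KO libraries are female, the fit sets them against the female references, which are WT3, HET3 and HET2. Without WT3 and HET3 the values moved to between -1.46 (*Fgb*) and 1.02 (*Serpina1a*) with a median of -0.293, and *Apob*, *Trf*, *Ahsg* and *Serpina1a* turned to higher in KO. Leaving out KO2 alone moved the median to -7.20, and leaving out KO1 alone to -1.62. In the same contrast the 16 HSC genes all had an unadjusted edgeR p under 0.05 in the higher direction, beside 15.7% of genes, with a median log2 fold change of 2.65, and none passed the adjusted threshold. The part of this difference between libraries in the values of the hepatocyte transcripts was not tested. Two-sided exact tests, which permuted the 2 KO and 6 other libraries without regard to sex and cannot go below p = 0.0714, gave for log2(CPM + 1) a p of 0.571 to 1 for the 10 members, with adjusted p of 0.947 or more over the 30 tests run.

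HET and WT libraries were compared to ask whether loss of a single allele changed these transcripts. No member was called by edgeR, beside 0% of genes, or by DESeq2, beside 0.311% of genes. *Apob* had an unadjusted edgeR p of 0.0391 with a log2 fold change of -3.27 ± 1.13 (edgeR adjusted p = 0.932), as 1 of 10 members with such a p in the lower direction beside 1.82% of genes, and it rested on 110 reads in WT3. *Alb* was fitted at 0.99 ± 1.82 (edgeR adjusted p = 0.980) and *Afp* at 0.73 ± 1.04 (edgeR adjusted p = 0.972). The values of the 10 members lay on both sides of 0, with a median of 0.67 beside 0.00 over all genes. The WT libraries alone spanned the range of the HET libraries for every member but *Trf*, and exact permutation tests, with a smallest p of 0.1 for 3 against 3, gave two-sided p of 0.4 to 1.

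For 9 of the 10 members, all but *Trf*, the largest fitted difference was that between male and female libraries, a split that is the same as that between the molecule labels. All 10 fitted values were lower in males. The values were -5.07 ± 1.91 for *Alb* (edgeR adjusted p = 0.116), -3.97 ± 1.35 for *Afp* (edgeR adjusted p = 0.0981), -4.24 ± 1.18 for *Apoa1* (edgeR adjusted p = 0.0900) and -1.14 ± 0.484 for *Trf* (edgeR adjusted p = 0.146). The edgeR test called none, beside 0.0194% of genes, with an adjusted p of up to 0.158 for *Ttr*. At an unadjusted edgeR p under 0.05, 9 of 10 members were lower, all but *Ttr*, beside 13.6% of genes. DESeq2 called 7 lower (*Alb*, *Afp*, *Apoa1*, *Apob*, *Ahsg*, *Fgb* and *Serpina1a*), beside 3.01% of genes. The call therefore depends on the tool.

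*Apob* had no read in any male library, so its female mean of 1.39 CPM was at least 9.22-fold higher than the level of 3 reads per library, and with this bound in place of its fitted value the median of the members was -4.28 in place of -4.45. No member had all male below all female libraries, beside 1.09% of genes, since KO1, a female library, was at or below HET1, a male library, for every member. Among males, HET1 had 143 CPM of the 10 transcripts and WT1 and WT2 had 57.7 and 97.8 CPM. Without WT3 and HET3 edgeR also called none. Exact permutation tests of 3 against 5 libraries, with a smallest p of 0.0357, gave two-sided p of 0.0714 to 0.536 and adjusted p of 0.536 or more.

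**Figure D4:**
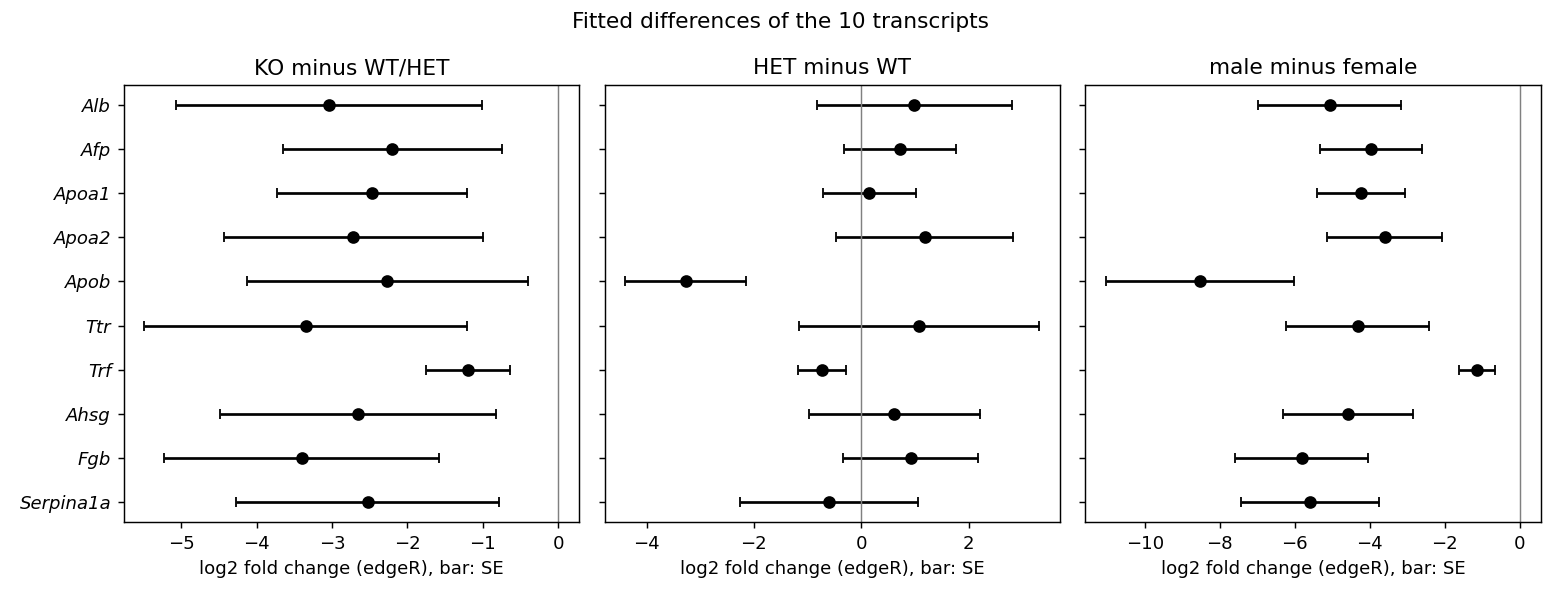
Log2 fold changes of the 10 transcripts fitted by edgeR, with SE as bars, for KO minus WT/HET, HET minus WT and male minus female, each on its own axis with a grey line at 0. All 10 lie below 0 in the first and last comparison and on both sides in the second, and none passed the adjusted threshold.

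Other secreted proteins of the hepatocyte showed which other genes were high where the members were. Of a list of 36 such genes, 32 had at least 10 reads in all. In 27 of these (84.4%) WT3 and HET3 were above the other 6 libraries, beside 8.84% of all genes tested. Genes that reach 10 reads only through the libraries where they are high had to differ in this way, so the count is a description. *Serpina6*, the corticosteroid-binding globulin, was at 116 CPM in WT3, 76.2 CPM in HET3, 43.6 CPM in KO2 and 12 and 14.8 CPM in HET1 and HET2, and at or below 0.279 CPM in WT1, WT2 and KO1. *Apoe*, the most abundant gene of the list, ran the other way, with 440 and 448 CPM in WT3 and HET3 and 817, 965 and 1059.8 CPM in WT1, WT2 and KO1. HSCs and macrophages also express *Apoe*. Without *Apoe*, the list summed to 20, 48.7 and 534 CPM in WT1 to WT3, 72.2, 102 and 312 CPM in HET1 to HET3 and 62.3 and 147 CPM in KO1 and KO2. In WT1, WT2 and KO1 most of this sum was *F10*, at 10.9, 34.2 and 31.6 CPM, and *Apoc1*, at 5.05, 11.5 and 14.2 CPM. *F10* also ran the other way, with 5.29 CPM in WT3 and 3.25 CPM in HET3. Of the 35 genes, 27 were under 3 reads in WT1, 27 in WT2 and 26 in KO1.

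The edgeR fits called none of the 32 secreted genes in any of the 3 comparisons. In KO, 6 were lower and 1 higher at an unadjusted edgeR p under 0.05, beside 9.48% and 15.7% of all genes, and DESeq2 called 4 lower, beside 1.64%. The 6 were *Afm*, *F2*, *Igfbp1*, *Serpina1c*, *Serpina1d* and *Serpina1e*, and the *Serpina1* copies share sequence. *Afm*, *Igfbp1*, *Serpina1c* and *Serpina1e* reached the minimum of 10 reads only through WT3 and HET3. In males 21 were lower and 1 higher at that p, beside 13.6% and 18.9% of all genes, and DESeq2 called 17 lower, beside 3.01%. In HET none passed the unadjusted p, beside 3.62% of genes, or was called by DESeq2, beside 0.311%. The median log2 fold change was -2.44 in KO, 0.37 in HET and -4.32 in males. Genes that pass the read filter only through WT3 and HET3 had to be high there. Like the count above, these counts and medians are therefore a description. Genes that act inside the hepatocyte stood near the shares of all genes. Of 32, 26 could be tested, and WT3 and HET3 were above the other 6 libraries in 3 (11.5%, beside 8.84% of all genes) and below them in 5 (19.2%, beside 23.9%). Its most abundant genes, *Dlk1* (a surface ligand of hepatoblasts) and *Krt18* (a keratin), were at 62.2 and 13 CPM in WT3 and at 37.6 and 7.2 CPM in HET3, below their levels of 130 and 81.1 CPM in WT1, 453 and 89.7 CPM in WT2 and 166 and 78.6 CPM in KO1. In KO, edgeR called none of the 26, with 4 higher at an unadjusted p under 0.05 (15.7% of all genes) and 4 called higher by DESeq2 (7.37% of all genes), and the median log2 fold change was 1.05.

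Among all 10148 other genes with a mean of at least 5 CPM, the 5 whose log2(CPM + 1) over the 8 libraries was most correlated with the log2 of the summed members were *Itih2* (r = 0.982), *Kng1* (r = 0.980), *Sesn2* (r = 0.977), *Hibch* (r = 0.976) and *Vtn* (r = 0.975). These values rank genes and have no test. *Itih2*, *Kng1* and *Vtn* encode the plasma proteins inter-alpha-trypsin inhibitor heavy chain, kininogen and vitronectin and were on the list of secreted proteins. *Itih2* was at 26.8 CPM in WT3 and 13.2 CPM in HET3 and at or below 0.204 CPM in WT1, WT2 and KO1. *Sesn2*, a stress-response gene, and *Hibch*, a mitochondrial enzyme of valine breakdown, were on no list and moved far less, from 5.64 to 15.7 CPM and from 66.7 to 89.3 CPM.

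The markers of other FL cells moved in several ways beside the hepatocyte transcripts. The summed level of 15 macrophage genes was 469 CPM in WT3 but 102 CPM in HET3, with 51 to 312 CPM in the other libraries, and its leading genes *Hmox1* and *C1qb* were at 161 and 49.9 CPM in WT3. Like the hepatocyte transcripts, 10 of the 14 macrophage genes tested (71.4%) were highest in WT3, beside 10.3% of all genes. In none of the 14 were WT3 and HET3 both above the other 6 libraries. Erythroid genes, led by *Hbb-bs* and *Hbb-bt*, summed to 14657.5 CPM in HET1, 5594.0 CPM in HET2 and 873 to 3697.0 CPM in the other libraries, so the library with the most globin was not that with the most *Alb*. The sum rests on globins, and 2 of the 15 erythroid genes had WT3 and HET3 above the other 6 libraries. *Klf1*, an erythroid transcription factor, was at 919 CPM in WT3 and 1049.6 CPM in HET3 against 41.4 to 871 CPM elsewhere, with WT1, WT2 and KO1 lowest, and *Tfrc*, the transferrin receptor, at 544 and 689 CPM against 89.7 to 486 CPM. The part of erythroid cells in the order of the libraries was not tested. Neutrophil genes, led by *Mpo* and *Prtn3*, summed to 812 CPM in WT3, 102 CPM in HET3 and 152 to 639 CPM elsewhere.

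The sums of some lists were lowest where the hepatocyte transcripts were highest. Sinusoidal endothelial genes, led by *Pecam1* and *Clec4g*, summed to 13.7 CPM in WT3 and 5.48 CPM in HET3 against 23.8 to 103 CPM elsewhere, with *Clec4g* at 0 in both. That sum is mostly *Pecam1*, and WT3 and HET3 were below the other 6 libraries in 3 of 11 genes (27.3%, beside 23.9% of all genes), while the sinusoidal receptors *Stab1* and *Stab2* were highest in WT3, at 2.95 and 3.54 CPM. Megakaryocyte genes, led by *Pf4* and *Gp9*, were at 68.4 and 29.7 CPM against 143 to 1568.7 CPM, and B lymphoid genes, led by *Cd79b* and *Vpreb1*, at 11 and 2.49 CPM against 36.5 to 111 CPM. Cholangiocyte genes, led by *Spp1* and *Epcam*, were at 1.15 and 0.761 CPM against 6.6 to 37.5 CPM, and stellate cell genes, led by *Col1a2* and *Pdgfrb*, were between 3.22 and 12.6 CPM in every library. WT3 and HET3 were below the other 6 libraries in 3 of 7 megakaryocyte, 3 of 7 B lymphoid and 4 of 4 tested cholangiocyte genes. The cholangiocyte markers *Krt19* and *Sox9* had no read in any library and at most 0.14 CPM, respectively, so the list's sum rests on genes that other cells also express. Whether the other cells of these lists contributed to the hepatocyte transcripts was not tested.

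**Figure D5:**
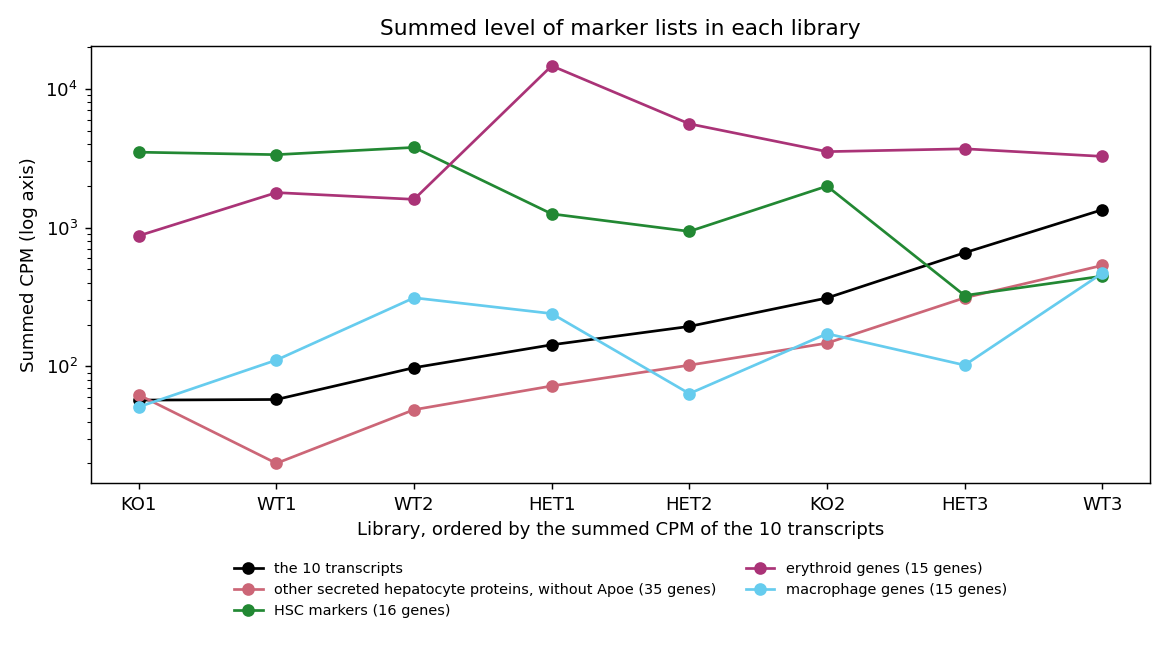
Summed CPM of the 10 transcripts and of 4 marker lists in each library on a log axis, with the libraries ordered by the first sum. From left to right the 10 transcripts rise from 57.1 to 1345.3 CPM, the 35 secreted genes without *Apoe* go from 62.3 to 534 CPM, the HSC genes from 3495.7 CPM in KO1 to 324 CPM in HET3 and 447 CPM in WT3, and the sums of the globin-rich erythroid list and of the macrophage list follow neither of these orders. In WT1, WT2 and KO1 the sum of the 35 secreted genes is mostly *F10* and *Apoc1*.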

How the data were processed

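RNA was isolated by the authors from 500 sorted cells per sample, amplified as cDNA and sequenced as single-end reads of 50 bases. The authors trimmed the reads with Trim Galore 0.6.6 and aligned them to GRCm38 with STAR 2.7.8, keeping reads with a single location, and deposited raw counts per Ensembl gene, so that reads shared by copies of a gene are lost. The strand setting is not given in the sources used here. A second deposited table, of log2 values corrected for sex, was not used.

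Symbols and positions were taken from GENCODE M21 (GRCm38), which named 55141 of 55487 genes. Levels are CPM of counted reads (17895973 to 21720972 per sample). Genes with at least 10 reads over the 8 samples (20610) were normalized by TMM and tested with edgeR 4.0.16 in R 4.3.3 (quasi-likelihood, legacy form), with sex and genotype as terms and WT and HET pooled. HET and WT were compared over 6 samples, and the sex term gave the male comparison. A call needed an adjusted p (Benjamini-Hochberg) below 0.05 together with a log2 fold change beyond 1 in either direction. In data simulated for KO against WT/HET, in which 200 of 19899 genes had a true log2 fold change of 2 in size, edgeR recovered 117 with 10 false calls and DESeq2 1.42.0 recovered 150 with 100. The simulation limited how far a gene could vary between libraries and gave all libraries the same baseline, unlike the data. It therefore does not give the recovery to be had for the members, whose libraries differed widely. Members were also compared by exact permutation tests with a pseudocount of 1. Per the methods, RNA came from 3 mice per genotype, less the discarded KO sample, so the samples were taken as separate embryos. No pair of libraries of the same genotype agreed within sampling noise.

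The members and the marker lists were chosen with earlier results of these data known. Besides the members and *Nfkbia*, the text names by rule the 2 most abundant genes of each list (1 HSC gene is not reported here), the *Serpina1* copies and the 5 genes closest to the summed members. *Ly6a*, *Kit* and other genes outside this rule were named after their values were seen. Alternatives were DESeq2, other normalizations and filters, another form of the edgeR fit, no sex term, the replicate number as a block, other reference samples, other denominators and each sample left out. Removal of WT3 and HET3 and of *Trf* was added after the data were seen.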

Additional observations from a re-analysis of the deposited data

Results flagged for a closer look

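A test for a lone extreme value was run, whose limits chance meets in about 1 of 20 groups of normally distributed values. The CPM were skewed (*Alb* in WT and HET had a mean of 83.5 and a median of 23.8 CPM), so the rate here is not known. By this test WT3 stood apart among the 6 WT and HET samples for 3 members. It had 336 CPM of *Alb*, where the next sample had 117 CPM, 5.06 CPM of *Apob*, where the next had 0.71 CPM, and 55.8 CPM of *Ttr*, where the next had 16.4 CPM. Among the 5 female samples WT3 also stood apart for *Apob*, at 5.06 CPM against 0.953 CPM in KO2. In all, 22 sets of values were checked, the 10 members and their sum in each of these groups. The extreme sample was the same in each case, and these values share their library.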

How the results depend on the processing

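No member was called in KO against WT/HET or in HET against WT under any alternative run. Between males and females, the count of called members was 0, but 7 by DESeq2 and 9 with no filter beyond 1 read, and 0 to 7 when each sample was left out (7 without HET1 and 1 without HET2). The cause was not tested. Over all genes the calls were 0 in KO, 0 in HET and 4 between the sexes, but 1855, 64 and 2996 by DESeq2 and 1106, 131 and 2255 with no filter beyond 1 read, and 706 in KO against WT alone. Without HET2 they were 703 in KO, 135 in HET and 1318 between the sexes, and without HET1 8 in KO and 3089 between the sexes. Of 180 log2 fold changes of members in KO under 18 alternatives, 172 kept their direction. With the replicate number as a block, *Apob* turned to 1.67, *Trf* to 0.544, *Ahsg* to 0.805 and *Serpina1a* to 1.31, and without WT3 and HET3 to 0.845, 0.221, 0.682 and 1.02. The numbers did not pair the samples, since the deviations of same-numbered samples correlated between -0.524 and 0.724, and the block changed no call. The median over members was -2.59, -1.64 without a sex term, -3.60 against WT alone, and -7.20 to -1.62 when each sample was left out. Normalization by library size alone moved the median of all genes from 0.13 to 0.408 and that of the members from -2.59 to -2.36. The mean share of counted reads was 0.00777 to 0.0722% in WT, 0.0168 to 0.0426% in HET and 0.00571 to 0.0311% in KO when each sample was left out, with the lowest values without WT3, HET3 and KO2, so WT3 alone sets the WT mean. There were only 2 KO samples, the libraries of a genotype differed widely, and 5 members were under 3 reads in at least 1 library. Large differences could therefore also go uncalled, such as the log2 fold change of *Alb* in KO, fitted at -3.05 ± 2.03 (SE). The lack of calls does not show that the members were unchanged.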
